A study of Mus musculus with 10 samples.

Results

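The 43 genes described here encode heat shock proteins, the chaperones and co-chaperones that work with them, and the transcription factors Hsf1 and Hsf2. They were taken by symbol from a read count table of mouse liver with 19764 genes. All 43 were in the table, and all 43 were among the 12558 genes that passed a filter on low counts. Most of the products act in the cytosol, but Hspa9, Hspd1, Hspe1, Trap1 and Dnaja3 encode chaperones of mitochondria and Hspa13 one of the endoplasmic reticulum.

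Polyadenylated RNA from whole liver was sequenced in 10 libraries from female mice. The 5 GRflox libraries came from mice with a floxed glucocorticoid receptor gene and no Cre, and the 5 GRMAC libraries from littermates (GRflox; LysM-Cre+/-) in which Cre removes the receptor from macrophages and other myeloid cells. All mice had been fasted for 8 h, beginning at ZT12. No fed mice were included, and strain background and age are not given in the sources used here. The controls carry no Cre, so receptor loss and an effect of the Cre allele cannot be told apart. LysM-Cre is active in myeloid cells, which are a minority of liver cells, and whole liver RNA comes mainly from hepatocytes. The labels number the libraries but do not say that each is a separate animal. The p-values therefore measure the spread between these libraries, which may be technical.

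The GRflox libraries held 25697931 to 27692528 counts each and the GRMAC libraries 23258884 to 26116916. Levels are given in CPM (counts relative to library size, scaled between libraries by the TMM method), as means ± SD with n = 5, and fold changes as log2 of GRMAC over GRflox ± SE. Nr3c1, the receptor gene, lay between 63.8 and 81.2 CPM in the GRflox libraries and between 74.7 and 94.0 CPM in the GRMAC libraries (adjusted p = 0.277, edgeR). A single count per gene cannot show the loss of an exon, and the level is no check of the deletion. Cd163, a scavenger receptor of resident macrophages, fell in GRMAC liver, with means of 28.8 ± 7.81 and 3.07 ± 0.493 CPM (−3.22 ± 0.19, adjusted p = 2.55e-05, edgeR). The summed level of 9 hepatocyte markers lay between 120378 and 140226 CPM in the GRflox libraries and between 120155 and 141410 CPM in the GRMAC libraries.

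Chaperones bind unfolded or newly made proteins and keep them from clumping. The HSP70 proteins hold and release their clients in a cycle driven by ATP, helped by J-domain proteins that bring clients and by exchange factors that free the nucleotide. HSP90 takes over many clients from HSP70, among them steroid hormone receptors such as the glucocorticoid receptor. The chaperonins fold proteins inside a closed chamber. Heat, oxidants and other protein-damaging stresses free HSF1 to bind heat shock elements, which are inverted repeats of GAA, in the promoters of the inducible genes. The constitutive genes are made at all times. By textbook knowledge 18 of the genes were treated as inducible and 25 as constitutive. The division was made with earlier results of these data known, so a difference between the sets is a description and not independent support.

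The intronless genes Hspa1b and Hspa1a encode the main inducible HSP70, and their promoters are shown because these genes had the largest differences between the genotypes. The bases before the start site of each, read 5′ to 3′ on the strand of the gene, are given from RefSeq on GRCm38.p6, the assembly also called mm10. Capitals mark a pair of inverted GAA units (GAANNTTC, or TTCNNGAA in the other arrangement).
Hspa1b, chr17:34959239-34959488, minus strand: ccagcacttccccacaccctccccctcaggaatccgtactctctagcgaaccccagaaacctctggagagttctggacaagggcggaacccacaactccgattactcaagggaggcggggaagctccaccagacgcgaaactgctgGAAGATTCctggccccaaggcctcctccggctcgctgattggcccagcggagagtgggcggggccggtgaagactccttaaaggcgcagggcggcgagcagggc
Hspa1a, chr17:34972157-34972406, minus strand: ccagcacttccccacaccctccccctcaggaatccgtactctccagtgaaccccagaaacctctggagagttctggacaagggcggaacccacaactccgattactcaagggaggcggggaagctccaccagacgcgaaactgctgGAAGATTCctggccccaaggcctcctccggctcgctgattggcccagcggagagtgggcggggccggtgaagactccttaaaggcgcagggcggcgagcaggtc
Over 250 bases the promoters differed at 3 positions (C44T, T47C and T249G, with the Hspa1a base first and position 1 at the 5′ end of the stretch shown). The marked unit pair lay 104 to 97 bases before the start in both.

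Hspb1 encodes the small heat shock protein HSP25, and its promoter held 2 such pairs.
Hspb1, chr5:135887669-135887918, plus strand: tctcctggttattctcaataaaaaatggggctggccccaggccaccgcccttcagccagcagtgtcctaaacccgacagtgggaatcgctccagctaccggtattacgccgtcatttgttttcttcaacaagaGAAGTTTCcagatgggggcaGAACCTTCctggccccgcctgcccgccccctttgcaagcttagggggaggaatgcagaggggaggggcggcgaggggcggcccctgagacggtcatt
Hspd1 and Hspe1 encode the mitochondrial chaperonin HSP60 and its lid, HSP10. They lie head to head, and the 215 bases between their starts are shared by both promoters. The stretch is shown on the strand of Hspe1, with capitals marking a run of 4 alternating units.
Between Hspd1 and Hspe1, chr1:55087933-55088147, plus strand: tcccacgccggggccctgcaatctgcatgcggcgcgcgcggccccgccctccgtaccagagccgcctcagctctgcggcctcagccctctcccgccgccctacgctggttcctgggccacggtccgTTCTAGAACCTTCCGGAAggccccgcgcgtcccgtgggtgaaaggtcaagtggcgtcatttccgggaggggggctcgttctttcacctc
The run lay 89 to 72 bases before the start of Hspe1 and 144 to 127 bases before that of Hspd1. The longest run among the members' promoters was that of Chordc1, a co-chaperone of HSP90, from 4 bases before to 19 bases after its start.
Chordc1, chr9:18292261-18292287, plus strand: cgGAACGTTCGGGAAAATTCCTGAAgc
Dnajb6, a constitutive J-domain protein gene, held a run of 3 units at 46 to 34 bases before its start.
Dnajb6, chr5:29735850-29735866, plus strand: gaGAATCTTCCGGAAcg

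RefSeq promoters (250 bases before to 50 after the start, 300 in all) were matched for 35 of the 43 genes (not for Hsf1, Hsp90aa1, Hsp90ab1, Hspa8, Hspa9, Hspa13, Cryab and Cct4). Both motif arrangements were searched. Each pattern reads the same on both strands in its 2-unit form, overlapping matches were counted, and a 3-unit match (GAANNTTCNNGAA or TTCNNGAANNTTC) contains 2-unit matches. A 2-unit match was found in 11 of 16 inducible genes (68.8%), in 3 of 19 constitutive genes (15.8%) and in 15.1% of the 32851 mouse promoters of the same length. A 3-unit match was found in 4 of 16 inducible genes (Hspd1, Hspe1, Hsph1 and Chordc1; 25%), in 1 of 19 constitutive genes (Dnajb6; 5.26%) and in 0.603% of all promoters. These matches describe letters in the window and not binding.

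Most inducible chaperone genes had lower mean levels in the GRMAC livers and a wider spread between the GRflox livers, and 0 of the 18 passed edgeR's adjusted threshold. Of the 18 inducible genes, 17 had a negative log2 fold change (all but Cryab), as had 20 of the 25 constitutive genes, where 49.8% of all genes tested had a log2 fold change below 0. The median log2 fold change was −0.44 over the inducible genes, −0.10 over the constitutive genes and 0.00 over all genes tested. The SD of log2 CPM was larger in GRflox in 15 of the 18 inducible genes (not in Cryab, Dnaja4 and Dnajb4). It was larger in 15 of the 25 constitutive genes and 43.6% of all genes tested. Without GRflox 5 it was larger in 11 of 18 inducible, 15 of 25 constitutive and 5069 of all 12558 genes tested. The 10 genes taken as the core of the inducible set were Hspa1a, Hspa1b, Hspb1, Cryab, Hsp90aa1, Hspe1, Hsph1, Dnajb1, Bag3 and Chordc1. Their median was −0.73. Of these 10, 9 were lower at an unadjusted p under 0.05 with edgeR, beside 14 of all 18 inducible genes and 7.75% of all genes tested. The core includes the inducible genes with the largest falls (Hspa1b, Hspa1a, Hspb1, Hsph1, Bag3, Hsp90aa1 and Dnajb1). It is part of a set chosen with earlier results of these data known. Its values are therefore a description and not independent support. In bulk tissue, fewer cells of a type and less RNA per cell cannot be told apart.

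No member passed edgeR's quasi-likelihood test at an adjusted p under 0.05 over all 12558 genes, where 0.175% of all genes passed (0.0557% lower in GRMAC). The lowest adjusted p among the members was 0.085, for Hspe1. At an unadjusted p under 0.05 with edgeR, 20 of the 43 genes were lower in GRMAC and 0 were higher, beside 7.75% of all genes lower and 8.58% higher (16.3% in either direction). These were 14 of 18 inducible and 6 of 25 constitutive genes. With limma-voom 0 members passed the adjusted threshold, beside 0.0637% of all genes, and 21 were lower at an unadjusted p under 0.05, beside 7.99% of all genes. In the authors' deposited table, which equals a DESeq2 fit of the same counts, 10 members fell and 0 rose at an adjusted p under 0.05, beside 1.49% of all genes that fell and 1.84% that rose (3.33% in either direction). These were Hspa1b, Hspa1a, Dnajb1, Stip1, Dnaja1, Hspe1 and Ahsa1 among the inducible genes and Hspa8, Hsp90ab1 and Dnajb2 among the constitutive ones. Leaving out GRMAC 1 left 4 of these DESeq2 calls (Hspa1a, Hspa1b, Hspa8 and Hspe1), beside 0.795% of all genes lower. Leaving out GRflox 1 or GRMAC 5 gave 6 members, beside 0.912% and 1.26% of all genes lower, and leaving out GRflox 4 gave 19, beside 2.54%. Leaving out GRflox 2, GRflox 3, GRMAC 2, GRMAC 3 or GRMAC 4 gave 13, 8, 9, 8 and 8 members, in that order, beside 1.12%, 0.954%, 1.32%, 1.28% and 1.7% of all genes lower.

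**Figure D1:**
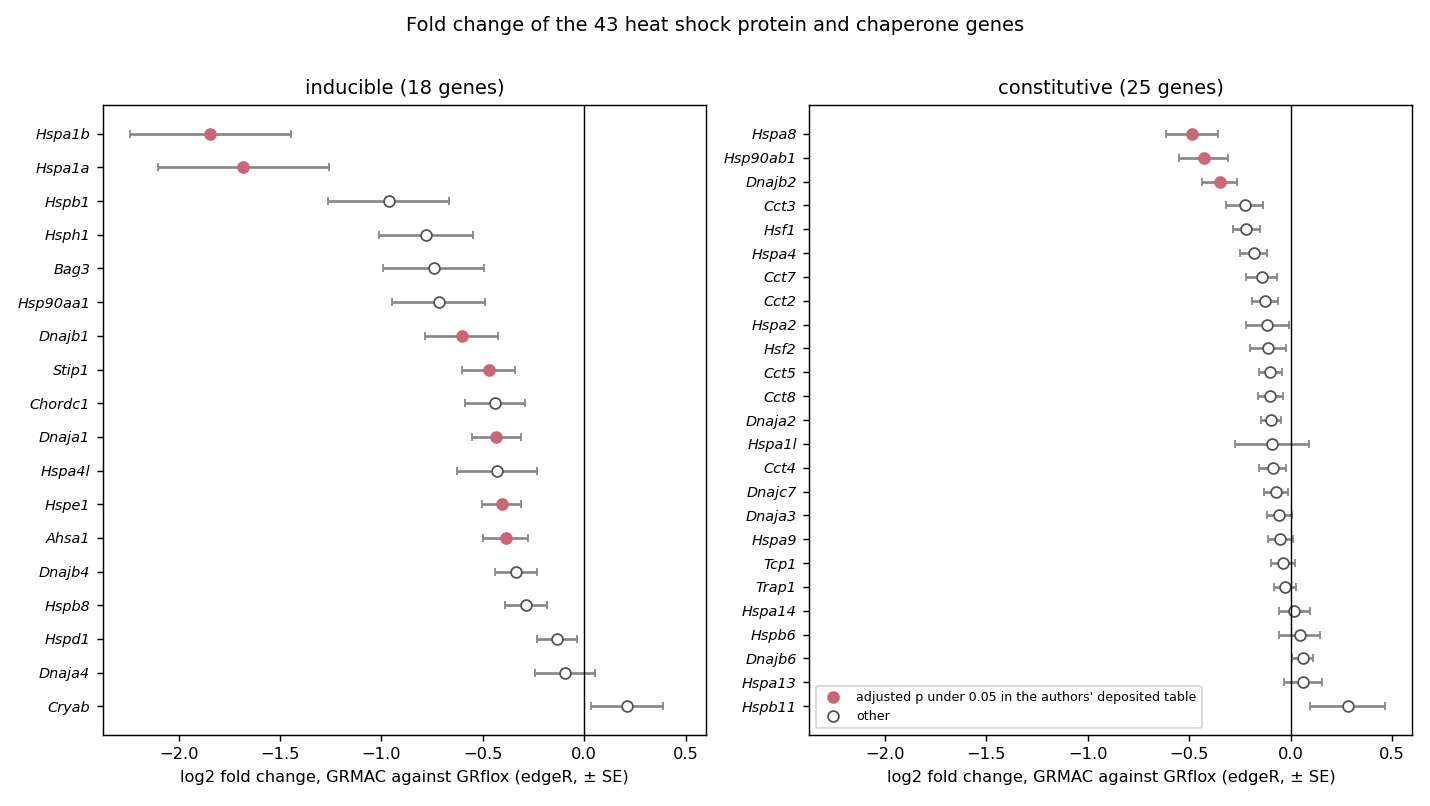
Log2 fold change of GRMAC over GRflox for each of the 18 inducible and 25 constitutive genes (edgeR, bars ± SE, 5 libraries per genotype), with genes past an adjusted p of 0.05 in the authors' deposited table filled. The inducible genes reach from −1.84 for Hspa1b to 0.21 for Cryab, and the constitutive genes from −0.49 for Hspa8 to 0.28 for Hspb11.

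Hspa1b (NM_010478, chr17:34956429-34959238) showed the largest difference of the 43 genes. It stood at 41.8, 25.6, 81.3, 27.6 and 90.3 CPM in GRflox 1 to 5 and at 14.9, 15.6, 11.5, 15.8 and 16.5 CPM in GRMAC 1 to 5. GRflox 3 and GRflox 5 were high, GRflox 2 and GRflox 4 were nearest to the GRMAC level, and every GRMAC library was below every GRflox library. The means were 53.3 ± 30.5 and 14.8 ± 1.96 CPM, a 3.59-fold difference on the fitted scale (−1.84 ± 0.39, adjusted p = 0.0895, edgeR). The authors' deposited table gave Hspa1b an adjusted p of 0.000386. A two-sided exact permutation test of its log2 CPM gave p = 0.00794, the smallest that 5 against 5 libraries allow, and 0.196 after adjustment over all genes. Without GRflox 5 the log2 fold change was −1.57 ± 0.35.

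Only 4 members had every GRMAC library below every GRflox library (Hspa1b, Dnaja1, Dnajb1 and Hsf1), beside 2.01% of all genes, and 0 members had every GRMAC library above, beside 2.05% of all genes. Without GRflox 5 the same criterion was met by 3 inducible genes and 1 constitutive gene, beside 2.33% of all genes.

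Hspa1a (NM_010479, chr17:34969359-34972156) was far less abundant, at 1.29, 0.677, 3.46, 1.13 and 2.36 CPM in GRflox 1 to 5 and at 0.646, 0.616, 0.357, 0.730 and 0.411 CPM in GRMAC 1 to 5. GRflox 3 and GRflox 5 were again the high libraries, and only GRflox 2 lay within the GRMAC range. On the log2 scale the change was −1.68 ± 0.42 (adjusted p = 0.0928, edgeR; 0.00547 in the authors' deposited table). Of the 50-base words of the Hspa1a transcript, 58.8% also occur in Hspa1b, and 62.3% of those of Hspa1b occur in Hspa1a, so the division of counts between the genes is uncertain. Summed, both genes stood at 26.3 to 92.6 CPM in GRflox and 11.9 to 16.9 CPM in GRMAC.

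Of the constitutive cytosolic HSP70 genes, Hspa8 (NM_031165, chr9:40801273-40805199), which encodes the main HSC70, fell in the authors' deposited table. It stood at 2222, 1745, 2091, 1594 and 2725 CPM in GRflox 1 to 5 and at 1594, 1441, 1355, 1645 and 1366 CPM in GRMAC 1 to 5. GRflox 5 was highest and GRflox 4 overlapped with the GRMAC libraries. The log2 fold change was −0.49 ± 0.13 (adjusted p = 0.102, edgeR; 0.0131 in the authors' deposited table) and −0.37 without GRflox 5. Per kilobase of transcript, Hspa8 had means of 867 ± 185 and 618 ± 55.4 CPM in GRflox and GRMAC, and Hspa1b at 19.0 ± 10.9 and 5.30 ± 0.698 CPM, and Hspa8 was the more abundant of these in both genotypes. Hspa8 shares 74.8% of its 50-base words with other transcripts, mostly those of processed copies. For Hspa1l the share was 71.4%. Hspa1l (−0.09 ± 0.18), Hspa2 (−0.12 ± 0.11) and Hspa14 (0.02 ± 0.08) had smaller differences, and none of them passed either test.

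The HSP110 proteins are exchange factors for HSP70. Hsph1 (NM_013559, chr5:149616845-149636315), their inducible member, stood at 158, 116, 160.2, 87.4 and 242 CPM in GRflox 1 to 5 and at 87.3, 91.6, 93.4, 84.5 and 88.0 CPM in GRMAC 1 to 5. GRflox 4 lay within the narrow GRMAC range and the other GRflox libraries were above it. On the log2 scale the change was −0.78 ± 0.23 (adjusted p = 0.16, edgeR; 0.0503 in the authors' deposited table). Hspa4l, a testis-rich relative, was at 43.6, 31.6, 34.0, 26.5 and 55.0 CPM in GRflox 1 to 5 and at 24.002, 29.8, 25.6, 36.7 and 25.5 CPM in GRMAC 1 to 5. Its groups overlapped, with GRMAC 4 above 3 of the GRflox libraries (−0.43 ± 0.20, adjusted p = 0.318, edgeR). Hspa4, the constitutive member, had means of 155 ± 13.9 and 136 ± 6.24 CPM in GRflox and GRMAC (−0.18 ± 0.07, adjusted p = 0.201, edgeR).

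Among the 5 small heat shock protein genes, Hspb1 (NM_013560, chr5:135887919-135889563) had the largest difference. It stood at 124, 78.2, 65.8, 57.8 and 152 CPM in GRflox 1 to 5 and at 40.4, 62.2, 38.8, 60.9 and 42.2 CPM in GRMAC 1 to 5. GRflox 1 and GRflox 5 were high, and GRflox 4 lay below GRMAC 2 and GRMAC 4. The log2 fold change was −0.97 ± 0.30 (adjusted p = 0.176, edgeR; 0.058 in the authors' deposited table). Hspb1 shares 60.4% of its 50-base words with other transcripts, so its count is uncertain. Hspb8, whose product works with BAG3, had means of 205 ± 35.9 and 168 ± 13.4 CPM in GRflox and GRMAC (−0.29 ± 0.10, adjusted p = 0.198, edgeR). Cryab, the gene of αB-crystallin, was rare, at 1.48, 1.92, 1.37, 1.43 and 1.37 CPM in GRflox 1 to 5 and at 1.38, 2.23, 1.71, 1.61 and 1.81 CPM in GRMAC 1 to 5. It was the only inducible gene with a positive log2 fold change (0.21 ± 0.18, adjusted p = 0.598, edgeR), and its groups overlapped. Hspb6 (0.05 ± 0.10) and Hspb11 (0.28 ± 0.18), the latter also a part of the intraflagellar transport complex, did not pass either.

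HSP90 is made from an inducible gene, Hsp90aa1, and a constitutive one, Hsp90ab1, and both were lower on average in GRMAC. Hsp90aa1 (NM_010480, chr12:110691036-110696395) stood at 431, 309.6, 357, 231 and 617 CPM in GRflox 1 to 5 and at 218, 239.6, 204, 267 and 253 CPM in GRMAC 1 to 5. Hsp90ab1 (NM_008302, chr17:45567778-45573261) stood at 1292, 1162, 1184, 970.2 and 1692 CPM in GRflox 1 to 5 and at 900.3, 976, 873, 1017 and 911 CPM in GRMAC 1 to 5. In both genes GRflox 5 was highest, and GRflox 4 was the only GRflox library within the GRMAC range. On the log2 scale the change was −0.72 ± 0.23 for Hsp90aa1 (adjusted p = 0.176, edgeR; 0.0903 in the authors' deposited table). For Hsp90ab1 it was −0.43 ± 0.12 (adjusted p = 0.117, edgeR; 0.0255 in the authors' deposited table). Per kilobase, Hsp90ab1 was at 500 ± 106 CPM and Hsp90aa1 at 119 ± 44.7 CPM in GRflox. Of the 50-base words of Hsp90aa1, 58.5% occur in other transcripts, so its count is uncertain. Trap1, the mitochondrial HSP90, was at 165 ± 4.89 and 162 ± 8.95 CPM (−0.03 ± 0.05).

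**Figure D2:**
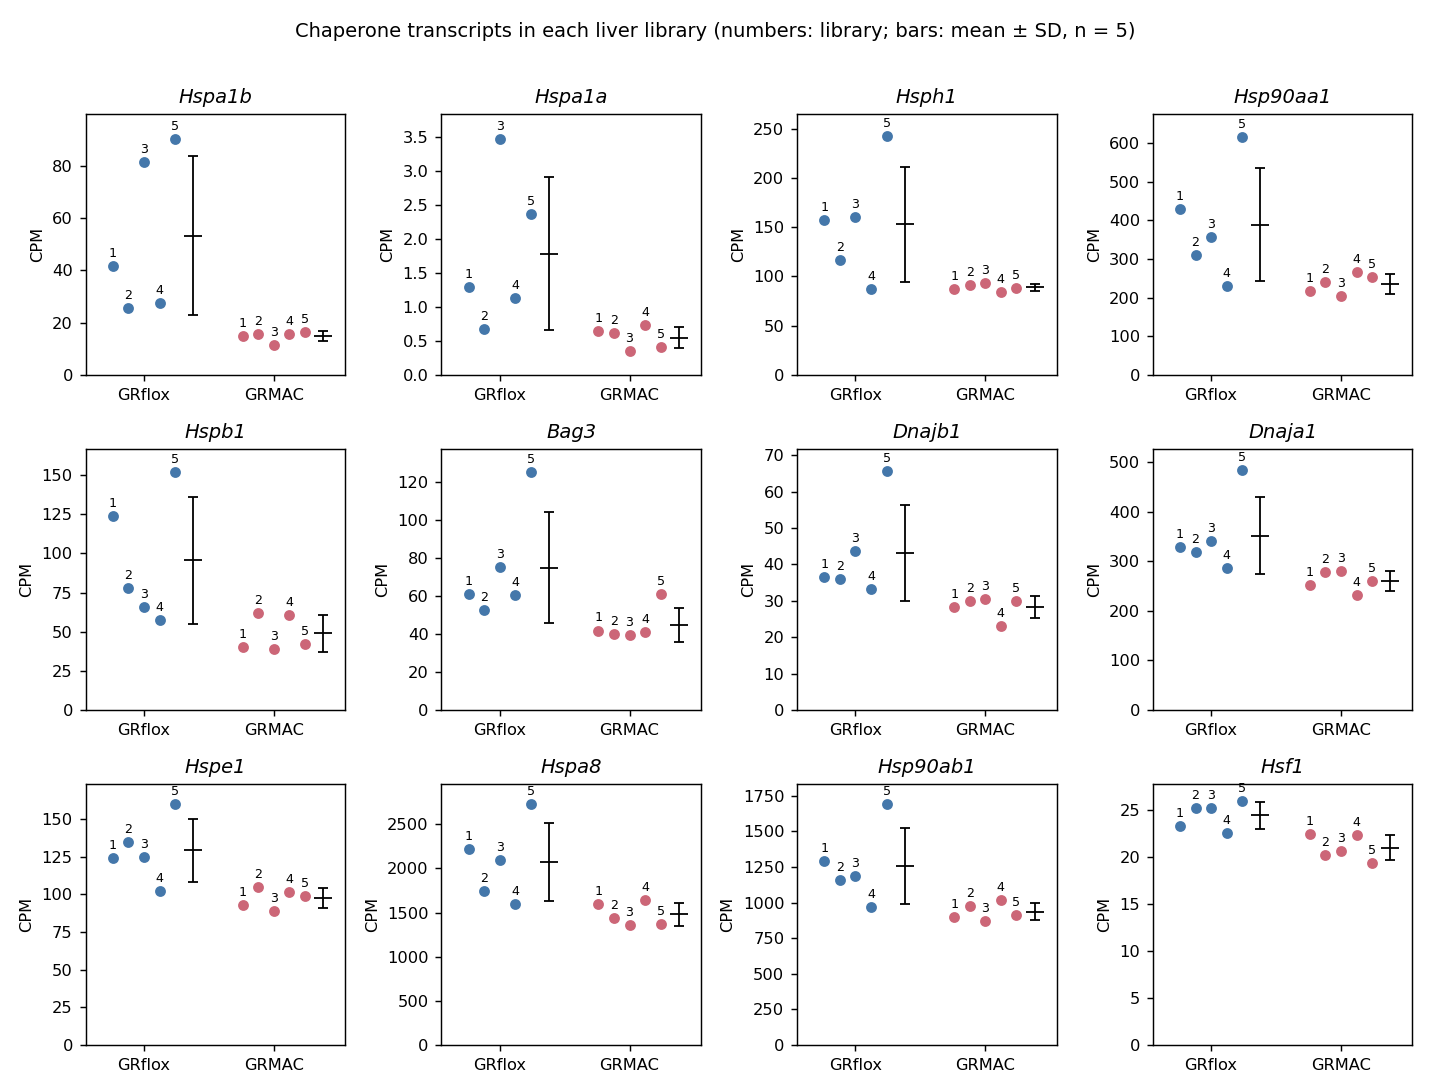
Level in CPM (vertical axes from 0) of 12 of the genes in each library, numbered 1 to 5 within GRflox (blue) and GRMAC (red), with the mean ± SD (n = 5) to the right of the points. GRflox 5 is the highest point for 11 of the 12 genes shown, and in Hspa1b, Dnaja1, Dnajb1 and Hsf1 the GRMAC points all lie below the GRflox points.

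J-domain proteins pass clients to HSP70 and start its ATP cycle. Dnajb1 (NM_018808, chr8:83608175-83612653), the gene of HSP40, stood at 36.6, 36.1, 43.8, 33.2 and 65.6 CPM in GRflox 1 to 5 and at 28.2, 30.02, 30.4, 22.98 and 30.03 CPM in GRMAC 1 to 5. Dnaja1 (NM_008298, chr4:40722468-40737151) stood at 329, 318, 341, 287 and 484 CPM in GRflox 1 to 5 and at 253, 279, 279, 232 and 260.0 CPM in GRMAC 1 to 5. In both, GRflox 5 stood well above the other GRflox libraries, and the genotypes did not overlap. For Dnajb1 the log2 change was −0.60 ± 0.18 (adjusted p = 0.155, edgeR; 0.0185 in the authors' deposited table) and −0.40 ± 0.10 without GRflox 5. That of Dnaja1 was −0.43 ± 0.12 (adjusted p = 0.124, edgeR; 0.0271 in the authors' deposited table) and −0.29 ± 0.08 without GRflox 5. Exact permutation p-values were 0.00794 for both, the smallest possible, and 0.196 after adjustment over all genes. Any gene whose genotypes do not overlap gets this smallest p, so it adds nothing to the lack of overlap.

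Dnajb2 (NM_020266, chr1:75236423-75245692), a constitutive J-domain protein that sends clients to the proteasome, stood at 74.3, 74.5, 73.1, 66.4 and 92.5 CPM in GRflox 1 to 5 and at 56.0, 68.1, 61.8, 56.4 and 56.7 CPM in GRMAC 1 to 5. GRMAC 2 alone reached above the lowest GRflox library. The log2 fold change was −0.35 ± 0.09 (adjusted p = 0.0875, edgeR; 0.0166 in the authors' deposited table). Dnajb4, an inducible relative of Dnajb1, was at 46.2 ± 6.08 and 36.5 ± 4.87 CPM (−0.34 ± 0.10, adjusted p = 0.153, edgeR). The other J-domain genes differed little, with log2 fold changes of −0.10 for Dnaja2, −0.09 for Dnaja4, −0.07 for Dnajc7, −0.06 for Dnaja3 and 0.06 for Dnajb6. Dnaja4 shares 51.9% of its 50-base words with its neighbour Wdr61, so its counts are uncertain. Dnajb6 (42.8%) and Dnaja1 (30.6%) also share such words with other transcripts.

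All 4 co-chaperones of the list were lower on average in GRMAC, with log2 fold changes from −0.74 to −0.39. Bag3 (NM_013863, chr7:128523583-128546979), which links HSP70 to autophagy, stood at 60.9, 52.4, 75.0, 60.6 and 125 CPM in GRflox 1 to 5 and at 41.8, 40.1, 39.6, 41.1 and 61.0 CPM in GRMAC 1 to 5. GRflox 5 and GRMAC 5 each stood above the rest of their genotype, and GRMAC 5 alone overlapped with GRflox. For Bag3 the log2 change was −0.74 ± 0.25 (adjusted p = 0.194, edgeR; 0.0871 in the authors' deposited table) and −0.48 ± 0.14 without GRflox 5.

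Stip1 (NM_016737, chr19:7020696-7040026), the adaptor HOP that joins HSP70 to HSP90, stood at 115, 103, 99.7, 78.4 and 143 CPM in GRflox 1 to 5 and at 71.0, 87.4, 78.2, 79.2 and 72.4 CPM in GRMAC 1 to 5. Ahsa1 (NM_146036, chr12:87266728-87273952), which speeds the ATPase of HSP90, stood at 124, 109, 119, 93.6 and 157 CPM in GRflox 1 to 5 and at 91.4, 96.7, 86.2, 96.2 and 90.2 CPM in GRMAC 1 to 5. Chordc1 (NM_025844, chr9:18292267-18314000) stood at 64.0, 52.9, 62.2, 43.1 and 86.2 CPM in GRflox 1 to 5 and at 46.7, 44.0, 47.6, 45.4 and 43.8 CPM in GRMAC 1 to 5. In each of these genes GRflox 4 lay within or just below the GRMAC range, and the other 4 GRflox libraries lay above it. Log2 fold changes were −0.47 ± 0.13 for Stip1 (adjusted p = 0.131, edgeR; 0.0221 in the authors' deposited table), −0.39 ± 0.11 for Ahsa1 (0.126 and 0.0357) and −0.44 ± 0.15 for Chordc1 (0.189 and 0.0684).

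The mitochondrial chaperonin genes Hspe1 and Hspd1 share the stretch between their starts, and their fold changes were of different size. Hspe1 (NM_008303, chr1:55088148-55091317) stood at 124, 135, 125, 102 and 160.2 CPM in GRflox 1 to 5 and at 93.0, 105, 88.7, 101 and 99.0 CPM in GRMAC 1 to 5. Hspd1 (NM_010477, chr1:55077834-55087932) stood at 579, 515, 601, 494 and 713 CPM in GRflox 1 to 5 and at 559.5, 518, 454, 547 and 562 CPM in GRMAC 1 to 5. In Hspe1 the genotypes overlapped only between GRflox 4 and GRMAC 2, whereas in Hspd1 both GRflox 2 and GRflox 4 lay within the GRMAC range. For Hspe1 the log2 change was −0.41 ± 0.10 (adjusted p = 0.085, edgeR; 0.0109 in the authors' deposited table) and for Hspd1 −0.14 ± 0.10 (0.524 and 0.551); the difference between the genes was not tested. Each shares 44.8% of its 50-base words with processed copies and other transcripts, so both counts are uncertain. Hspa9, the mitochondrial HSP70 that hands clients to this chaperonin, was at 578, 566, 644, 603 and 658 CPM in GRflox 1 to 5 and at 591, 570.1, 597, 596 and 588 CPM in GRMAC 1 to 5, with overlapping groups (−0.05 ± 0.06).

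The cytosolic chaperonin, also called TRiC, folds actin and tubulin, and 7 of its subunit genes were on the list. All 7 had negative log2 fold changes, from −0.23 for Cct3 to −0.04 for Tcp1, with a median of −0.10. Without GRflox 5 they lay between −0.15 for Cct3 and −0.01 for Tcp1, with −0.08 for Cct7 and −0.06 for Cct8. None passed with edgeR (adjusted p from 0.242 to 0.783) or in the authors' deposited table. At an unadjusted p under 0.05 with edgeR 1 of the 7 was lower (Cct3), beside 7.75% of all genes. Tcp1 stood at 156, 154, 169.7, 168 and 176 CPM in GRflox 1 to 5 and at 158, 167, 160.0, 148 and 168 CPM in GRMAC 1 to 5, with no separation of the groups. GRflox 5 was the highest of all 10 libraries in 6 of these 7 genes, beside 13.5% of all genes tested.

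The factors themselves differed little. Hsf1 (NM_008296, chr15:76477445-76500972) stood at 23.3, 25.2, 25.3, 22.6 and 26.0 CPM in GRflox 1 to 5 and at 22.5, 20.3, 20.7, 22.4 and 19.4 CPM in GRMAC 1 to 5. The groups came close, at 22.6 CPM for GRflox 4 and 22.5 CPM for GRMAC 1, without overlapping (−0.22 ± 0.07, adjusted p = 0.143, edgeR; 0.0728 in the authors' deposited table). Hsf2 stood at 33.1, 39.9, 40.9, 38.9 and 40.5 CPM in GRflox 1 to 5 and at 34.0, 40.7, 39.1, 29.3 and 35.7 CPM in GRMAC 1 to 5, with overlapping groups (−0.11 ± 0.09, adjusted p = 0.562, edgeR). HSF1 is controlled largely through its protein, which RNA does not show.

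The mean centred log2 CPM over a set of genes gives each library 1 value, on a scale where 0 is the mean over all 10 libraries. For the inducible genes it was 0.27, 0.03, 0.35, −0.10 and 0.78 in GRflox 1 to 5 and −0.35, −0.17, −0.36, −0.21 and −0.24 in GRMAC 1 to 5. For the constitutive genes it was 0.05, 0.02, 0.06, −0.04 and 0.18 in GRflox 1 to 5 and −0.03, −0.02, −0.03, −0.09 and −0.08 in GRMAC 1 to 5. GRflox 5 was the highest and GRflox 4 the lowest of the GRflox libraries in both sets, with smaller distances in the constitutive one. Subtracting the constitutive from the inducible value left 0.61 in GRflox 5, 0.29 in GRflox 3, 0.23 in GRflox 1, 0.00 in GRflox 2 and −0.06 in GRflox 4, and −0.33 to −0.12 in GRMAC.

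**Figure D3:**
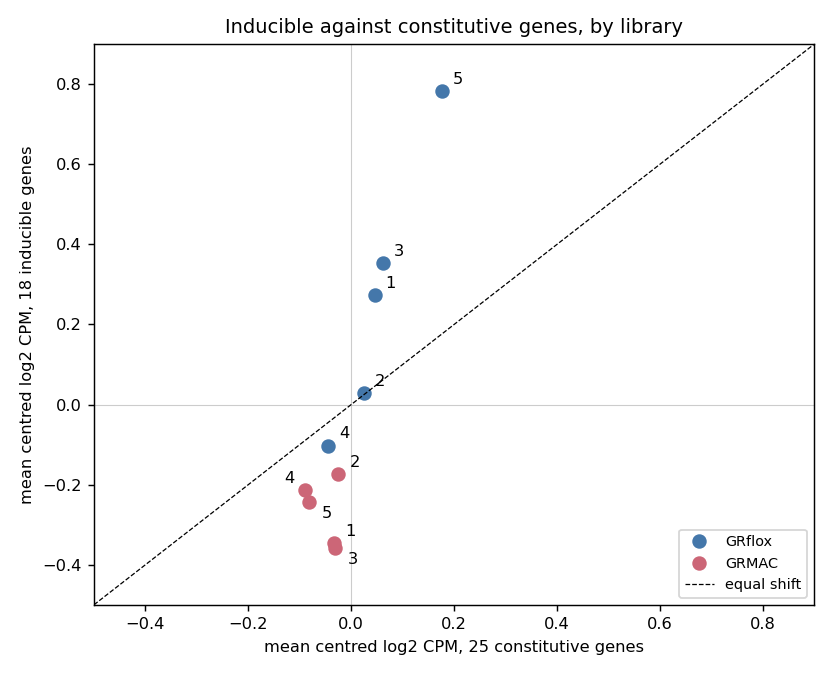
Mean centred log2 CPM of the 18 inducible genes (vertical) against that of the 25 constitutive genes (horizontal), 1 numbered point per library, GRflox in blue and GRMAC in red, with a dashed line where both would be equal. GRflox 5 stands at 0.78 on the vertical and 0.18 on the horizontal axis. All 5 GRMAC libraries and GRflox 4 lie below the dashed line, and GRflox 2 lies close to it.

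GRflox 5 had the highest level for most of the inducible genes. It was the highest of all 10 libraries in 16 of 18 inducible and 14 of 25 constitutive genes, where it was the highest in 13.5% of all genes tested. It was the highest of the GRflox libraries in 33 of the 43 genes (22% of all genes), and GRflox 4 was the lowest of them in 24 of the 43 (22.2% of all genes). Without GRflox 5 the median log2 fold change of the inducible genes was −0.30 and that of the constitutive genes −0.07, and 16 of 18 inducible genes had a value below 0. The log2 change was then −0.26 for Hspa4l, −0.29 for Chordc1, −0.17 for Hspb8 and −0.05 for Hspd1. At an unadjusted p under 0.05 with edgeR, 14 inducible and 4 constitutive genes were then lower, beside 5.81% of all genes, and 0 passed after adjustment. DESeq2 without GRflox 5 called 10 members, all lower, beside 0.815% of all genes lower. Among the GRMAC libraries, GRMAC 3 was the lowest of all 10 in 9 of the 18 inducible genes. The share of all genes in which GRMAC 3 was lowest was not computed.

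The spread within each genotype was compared next. The SD of log2 CPM was larger in GRflox than in GRMAC in 15 of 18 inducible and 15 of 25 constitutive genes, beside 43.6% of all genes tested. It was at least 2 times larger in 20 of the 43 genes, beside 8.87% of all genes. The median ratio of the SDs was 2.29 over the inducible genes, 1.44 over the constitutive genes and 0.914 over all genes. A larger SD in GRflox was not particular to the inducible genes. It was found in 7 of 7 cytosolic chaperonin genes, all constitutive (median ratio 2.60). Of the lists described below, 16 of 16 endoplasmic reticulum chaperone and stress pathway genes (1.61) and 8 of 9 other heat shock factor targets (1.95) had it. So had 12 of 27 HSP70 and HSP90 partner genes (0.936) and 5 of 11 mitochondrial protein quality genes (0.814). For prefoldin and chaperonin partners it was 2 of 8 (0.573), and for immediate early genes 0 of 13 (0.582). The largest ratios were those of Hsph1 (SD 0.55 in GRflox and 0.06 in GRMAC, ratio 9.58) and Chordc1 (0.37 and 0.05, ratio 7.09). Hspa1b had SDs of 0.85 and 0.21 (ratio 4.14).

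An exact two-sided permutation test of the spread gave p = 0.0476 for Hspa1b, and this was the 1 member with an unadjusted p under 0.05, beside 0.43% of all genes in either direction and 0.135% with the larger spread in GRflox. No gene passed after adjustment over all 12558 genes with this test. A pass was nearly out of reach, because p cannot fall below 0.00794 with 5 against 5 libraries. With 0.43% of all genes under 0.05 the test was also strict, so it cannot decide whether the spreads differ. Without GRflox 5 the median ratio of SDs was 1.32 for the inducible genes, 1.22 for the constitutive genes and 0.867 for all genes. The SD was then larger in GRflox in 11 of 18 inducible and 15 of 25 constitutive genes, beside 5069 of the 12558 genes tested.

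**Figure D4:**
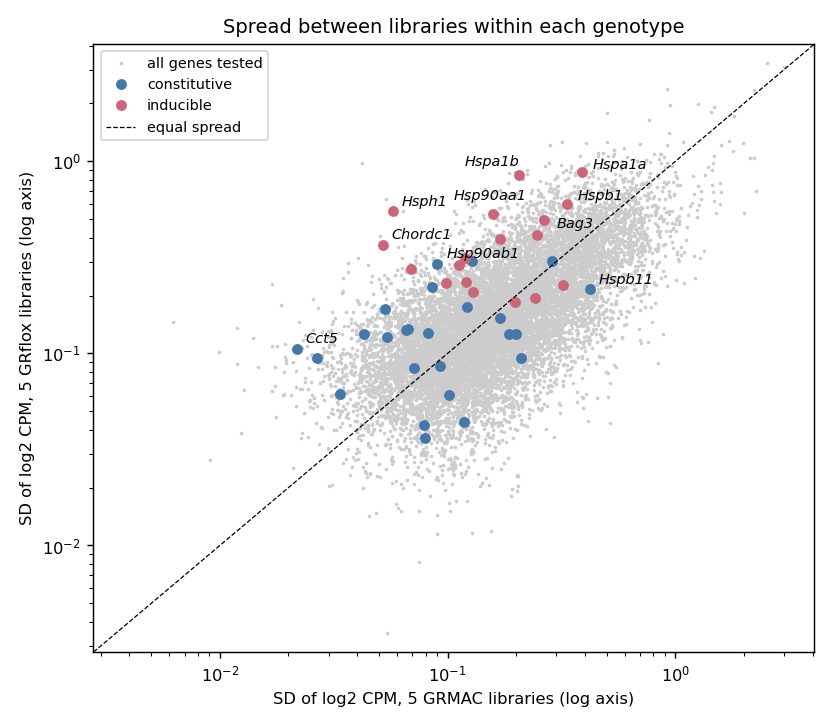
SD of log2 CPM over the 5 GRflox libraries (vertical, log axis) against that over the 5 GRMAC libraries (horizontal, log axis) for all 12558 genes tested (grey), the 18 inducible (red) and the 25 constitutive genes (blue), with a dashed line of equal SD. Of the inducible genes, 15 of 18 lie above the line, Hsph1 and Chordc1 farthest from it.

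Genes that act beside these chaperones were followed as separate lists. Of 27 genes for partners of HSP70 and HSP90, 0 passed with edgeR (7 lower and 1 higher at an unadjusted p under 0.05) and 1 fell in the authors' deposited table. This was Fkbp4, an HSP90 partner in steroid receptor complexes, with means of 175 ± 22.6 and 135 ± 17.3 CPM in GRflox and GRMAC (−0.37 ± 0.10, adjusted p = 0.106, edgeR; 0.0253 in the authors' deposited table). The median of that list was −0.10, and GRflox 5 was the highest of the 10 libraries in 9 of its 27 genes.

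Of 9 further genes known as heat shock factor targets, 0 passed with edgeR (5 lower and 1 higher at an unadjusted p under 0.05), while 3 fell and 1 rose in the authors' deposited table. In this list 5 genes had a negative and 4 a positive log2 fold change, with a median of −0.28. Dedd2, a death effector domain gene, was at 39.5 ± 4.48 and 30.2 ± 1.68 CPM in GRflox and GRMAC, with every GRMAC library below every GRflox library (−0.39 ± 0.08, adjusted p = 0.0622, edgeR; 0.00194 in the authors' deposited table). Fkbp4, which is on both lists, also fell in that table. Ubb, a polyubiquitin gene, had means of 8.42 ± 1.75 and 11.9 ± 1.22 CPM in GRflox and GRMAC and rose in the authors' deposited table (0.49 ± 0.13, adjusted p = 0.102, edgeR; 0.0224 in that table). Ubb holds near-identical repeats, so its count is uncertain.

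Of 8 prefoldin and chaperonin partner genes, 0 passed with edgeR (2 lower and 0 higher at an unadjusted p under 0.05). Pfdn2, a prefoldin subunit, fell in the authors' deposited table, from 38.6 ± 0.706 to 33.7 ± 2.20 CPM (−0.20 ± 0.06, adjusted p = 0.114, edgeR; 0.0415 in the authors' deposited table). Of 11 mitochondrial protein quality genes, 0 passed with edgeR (3 lower and 0 higher at an unadjusted p under 0.05) or in the authors' deposited table. Those with the lowest p were the protease subunit Clpp (−0.16 ± 0.05) and the exchange factor Grpel1 (−0.11 ± 0.05), each with all GRMAC libraries below all GRflox libraries. The cold-inducible gene Rbm3 was at 33.6 ± 5.79 and 32.9 ± 4.32 CPM (−0.03 ± 0.12).

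The chaperones of the endoplasmic reticulum serve secreted proteins and answer to another stress pathway. The list of 16 genes held such chaperones and members of that pathway, among them transcription factor genes such as Ddit3. Of these 16, 0 passed with edgeR, with 0 at an unadjusted p under 0.05, and 0 passed in the authors' deposited table. The median log2 fold change was −0.18. Their summed level was 3394, 3260.4, 2938, 2209.7 and 4810.2 CPM in GRflox 1 to 5 and 2601, 3636, 3106, 2472 and 3082 CPM in GRMAC 1 to 5. GRflox 5 was again the highest GRflox library, in 14 of 16 genes, and GRflox 4 the lowest, in 15 of 16, while the genotypes overlapped. The lowest p-values were those of Dnajb9 (−0.19 ± 0.10, adjusted p = 0.381, edgeR) and Ddit3 (−0.45 ± 0.27, adjusted p = 0.445, edgeR).

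Immediate early genes respond within minutes to handling and stress. Of 14 such genes 13 passed the filter, 0 passed with edgeR or in the authors' deposited table, and 0 had an unadjusted p under 0.05 with edgeR. Their summed level was 371, 517, 360.4, 530.5 and 354 CPM in GRflox 1 to 5 and 275, 592, 289.9, 491 and 596 CPM in GRMAC 1 to 5. GRflox 2 and 4 and GRMAC 2, 4 and 5 were high. Among the GRflox libraries the order of this sum (4, 2, 1, 3, 5 from high to low) was the reverse of that of the mean of the inducible chaperones given above, and among the GRMAC libraries the same 3 libraries were the higher ones in both. The part of handling in the chaperone differences was not tested.

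Markers of other cell types were summed in the same libraries, and their part in the chaperone differences was not tested. The 10 Kupffer cell markers summed to 247 to 325 CPM in the GRflox libraries and 286 to 406 CPM in the GRMAC libraries. They went both ways, with 7 positive and 3 negative log2 fold changes, from −0.85 to 0.55, and a median of 0.08. Cd5l, which macrophages secrete, was the 1 of these 10 that rose in the authors' deposited table (0.55 ± 0.13, adjusted p = 0.0928, edgeR; 0.0056 in the authors' deposited table). Of the 9 hepatocyte markers 1, the fibrinogen gene Fgb, rose in the authors' deposited table (0.37 ± 0.09). The hepatocyte list had 7 positive and 2 negative log2 fold changes, with a median of 0.06. Sinusoidal endothelial markers ranged from 196 to 227 and from 159 to 263 CPM in GRflox and GRMAC, and stellate cell markers from 201 to 251.8 and from 205 to 280.4 CPM. Cholangiocyte markers ranged from 28.1 to 36.0 and from 28.9 to 50.2 CPM. Muscle markers summed to 5.72 to 11.1 and 5.82 to 8.68 CPM, and neutrophil markers to at most 1.09 and 1.27 CPM. T, NK and B cell markers summed to 0.819 to 2.70 CPM in GRflox and 2.16 to 3.36 CPM in GRMAC, with means of 1.80 ± 0.693 and 2.72 ± 0.484 CPM. Red blood cell markers were at most 17.7 and 16.3 CPM. GRflox 5, the library with the highest chaperone levels, had 279 CPM of Kupffer cell markers, 5.72 CPM of muscle markers and 140226 CPM of hepatocyte markers.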

How the data were processed

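The authors deposited a table of read counts per gene, with 1 RefSeq transcript per symbol, and a table of comparisons with log2 fold changes and adjusted p-values, per the file headers. HISAT2 2.1.0, DESeq2 1.24.0 and mm10 are named in the submitters' processing notes. The counting program and its strand, intron and multimapping settings are not given in the sources used here, so genes that overlap or have near-identical copies are uncertain. Another 10 per-library columns of the comparison table were not used here. Columns were matched to the labels by genotype and number.

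Genes were filtered with filterByExpr (edgeR 4.0.16, R 4.3.3), which removed 0.0348% of the counts, scaled by TMM, and compared between 5 GRMAC and 5 GRflox libraries with the quasi-likelihood test with robust estimation. P-values were adjusted by Benjamini-Hochberg over 12558 genes, with a threshold of 0.05. SEs are the log2 fold change divided by the root of the F statistic. A count of 3, the limit that a count of 0 allows, is 0.111 to 0.129 CPM, which covers counting error only. Log2 CPM used a prior count of 2. Exact permutation tests ran over all 252 assignments of 5 against 5. A refit with DESeq2 1.42.0 gave a log2 fold change within 0.001 of the authors' deposited value for 16146 of 16146 genes. Shared 50-base words were sought in GENCODE transcripts. The scripts were tested on simulated data. Alternatives were DESeq2, limma-voom (limma 3.58.1), other scalings, no filter, no robust estimation, leaving out each library in turn and a block of replicate numbers; DESeq2 without each library was added after seeing the data.

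The members, the division into inducible and constitutive genes, the core of the inducible set and the other lists were chosen with earlier results of these data known. Values in every library are given for 21 members of that list and any other past a threshold (Dnajb2). From the other lists up to 4 genes past a threshold, or else the 2 with the lowest p, are named. A further 6 genes are named for likeness to the mean of the inducible genes. Some genes that these rules would name are not reported here.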

Additional observations from a re-analysis of the deposited data

Results flagged for a closer look

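Dixon's test at 95% was passed by 1 library in 8 of 90 groups of 5 (the levels of the members and the means of both sets), where chance gives 4.5 at 1 in 20. In 3 of these the library that stood apart was GRflox 5, above the rest. Dnaja1 was at 484 CPM there and at 287 to 341 CPM in the other GRflox libraries. Dnaja4 was at 13.4 CPM, beside 8.95 to 10.1 CPM. Dnajb6 was at 86.2 CPM, beside 81.1 to 82.1 CPM. Bag3 was at 61.0 CPM in GRMAC 5 and at 39.6 to 41.8 CPM in the other GRMAC libraries. Cryab was at 1.92 CPM in GRflox 2, beside 1.37 to 1.48 CPM. On the low side, Hspb11 was at 2.66 CPM in GRflox 3 (others 3.58 to 3.87 CPM), Hsf2 at 33.1 CPM in GRflox 1 (others 38.9 to 40.9 CPM) and Hspa14 at 15.4 CPM in GRMAC 2 (others 17.3 to 17.7 CPM).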

How the results depend on the processing

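The count of all genes past the threshold was 22 with edgeR, 424 with DESeq2, 8 with limma-voom, 34 without the filter, 8 without robust estimation and 81 with the replicate number as a block, and 5 to 47 when 1 library was left out. The count of members was 0 with edgeR, 10 with DESeq2 and 1 with the replicate block (Bag3, adjusted p = 0.0173), 0 to 1 without 1 library (Hspe1 without GRflox 4, adjusted p = 0.0435) and 4 to 19 with DESeq2 without 1 library (GRflox 1 to 5: 6, 13, 8, 19 and 10, GRMAC 1 to 5: 4, 9, 8, 8 and 6). Hspa1a, Hspa1b and Hspe1 passed in 10 of 10 of those DESeq2 fits. It stayed at 0 with limma-voom, both other scalings, no filter and no robust estimation. The cause of these differences was not tested. The median log2 fold change of the inducible genes was −0.44, −0.73 over the 10 core genes and −0.54 to −0.30 without 1 library. The constitutive median stayed between −0.12 and −0.07. The ratio of SDs of 2.29 was 1.32 without GRflox 5 and 2.03 to 2.70 without another library. For the 22 genes with values in every library, 362 of the alternative values kept direction and side of the threshold, 12 passed it in the same direction, and none reversed. Same-numbered libraries correlated at 0.04, 0.17, 0.15, −0.11 and 0.05, and 2 of 5 libraries of each genotype correlated best with their own number, so the numbers were not taken as pairs. Depth limits Hspa1a most, at 0.357 to 0.730 CPM in GRMAC beside a counting limit of 0.111 to 0.129 CPM.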

Other observations

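The 6 genes outside the list whose deviations from their genotype means followed the mean of the 18 inducible genes most closely over the 10 libraries were Psmd13 (Pearson's r = 0.98), Ywhag (0.97), Peo1 (0.95), Rabggtb (0.94), Txnl1 (0.94) and Zwint (0.93). They are the best of all genes tested with a mean of at least 1 CPM, and the libraries share depth and scaling, so these are descriptions with no p. Psmd13, a proteasome lid subunit, stood at 73.7, 69.7, 75.8, 69.3 and 85.6 CPM in GRflox 1 to 5 and at 67.0, 71.1, 66.8, 70.1 and 70.5 CPM in GRMAC 1 to 5. GRflox 5 was highest and GRflox 4 lowest of the GRflox libraries in all 6 genes, the same extremes as in the mean by which these genes were chosen. Ywhag, a 14-3-3 protein gene, stood at 183, 169, 178, 164 and 212 CPM in GRflox 1 to 5 and at 144, 151, 146, 155 and 149 CPM in GRMAC 1 to 5. It was the 1 of the 6 that fell in the authors' deposited table (−0.28 ± 0.07, adjusted p = 0.0854, edgeR; 0.0101 in that table), and its groups did not overlap.

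Within the list, likeness to the same mean (which holds the inducible genes themselves) was highest for Ahsa1 (r = 0.97), Hsph1 (0.94), Hsp90aa1 (0.94) and, among the constitutive genes, Hsp90ab1 (0.94), Cct7 (0.91) and Cct3 (0.91). Hsf1 had r = 0.40 and Hsf2 r = 0.07. Cryab, with r = −0.17, was the 1 inducible gene below 0.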
